A study of Drosophila melanogaster with 6 samples.

Results

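The genes described here are 30 components of the piRNA pathway of Drosophila melanogaster, chosen by name from the pathway's known members. All 30 were found among the 14862 genes of the authors' deposited table. They comprise 13 components known to act in the germ line, 1 known from the somatic follicle cells, fs(1)Yb, and 16 shared by both or used more widely. The study compared progeny of InR-DN mothers, whose oocytes made a dominant-negative form of the insulin receptor (3 samples), with progeny of mothers whose oocytes expressed green fluorescent protein (GFP control, 3 samples). A sample held the RNA of 200 embryos of 16 to 20 h. The sources used here name neither the driver line nor the strain background. They leave it unstated if a group's samples were separate crosses, so p-values may measure technical spread.

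piRNAs are small RNAs that guide PIWI-clade Argonaute proteins to transposon transcripts. In the fly ovary, precursors are transcribed from piRNA clusters, exported, cut at the surface of mitochondria and in the perinuclear nuage of germ cells, and loaded onto Piwi, Aubergine or Argonaute3. Piwi then acts in the nucleus to silence transcription, while Aubergine and Argonaute3 amplify piRNAs by cutting transposon and precursor RNAs in turn. PIWI proteins and piRNAs are also loaded into the egg by the mother, and follicle cells run a simpler form of the pathway that lacks the amplification loop.

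None of the 30 genes passed the threshold of the comparison. In the authors' deposited table, 0 of 30 had a Benjamini-Hochberg adjusted p under 0.05 in the edgeR likelihood ratio test, and the unadjusted p was under 0.05 for 1, fs(1)Yb. Over all genes 4.49% were called. Among genes with an average of 16 CPM (read counts scaled to a common library size) or more, where 29 of the 30 members lie, 1.38% were called and 3.66% had p under 0.05 before adjustment. The averages cover 12 libraries, of which 6 were not compared, so they are not levels of the embryos compared here. A count of 0 or 1 in 30 is near those shares. The table does not state which group is the numerator, so a gene can be called above or below 0 but neither higher nor lower in InR-DN than in GFP control. In whole embryos fewer cells of a type and less RNA per cell cannot be told apart.

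The members' differences were small on both sides of 0. Log2 fold changes ran from -0.36 for cuff to 0.57 for fs(1)Yb in the authors' deposited table. Their median was -0.05, against a median of 0.00 over all genes and 0.02 over genes at 16 CPM or more. There were 13 members above 0 (43.3%) and 17 below it by the authors' deposited table. Of genes at 16 CPM or more 57.0% lay above 0. Of all genes 7311 (49.2%) lay above 0 and 5769 below, the rest being exactly 0, which no member was. For each gene an implied SE was computed from the fold change and the likelihood ratio statistic. By less than 1 implied SE differed 25 of 30 members (83.3%). Among the 29 members at 16 CPM or more it was 25 (86.2%), against 85.0% of all genes at that level. The members' implied SEs ran from 0.18 to 0.38 on the log2 scale, with a median of 0.25.

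**Figure D1:**
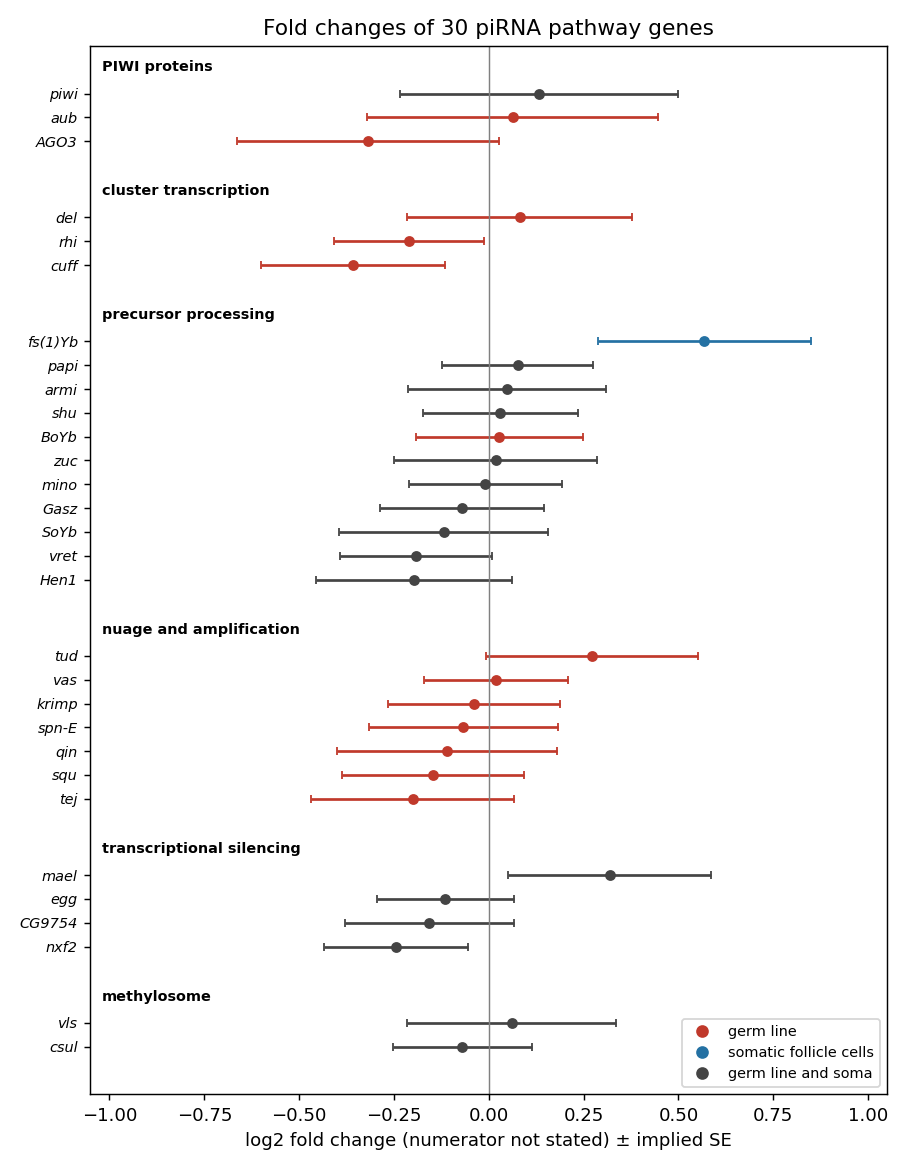
Log2 fold change by the authors' deposited table for each of the 30 piRNA pathway genes (x axis, log2 scale), grouped by role, with bars of 1 implied SE and colours for the compartment in which the component is known to act. Most bars cross 0, and fs(1)Yb at 0.57 lies farthest from it.

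Implied precision sets how large a difference could have gone uncalled. A call by the authors' deposited table took 3.06 implied SEs, which for the members corresponds to a difference of 1.47-fold for egg up to 2.25-fold for aub, with a median of 1.69-fold. The 95% intervals implied by the table excluded a 2-fold difference in either direction for 29 of 30 members. The exception was fs(1)Yb, with an interval of 0.02 to 1.12 on the log2 scale. The interval of AGO3 reached -0.996 on that scale.

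**Figure D2:**
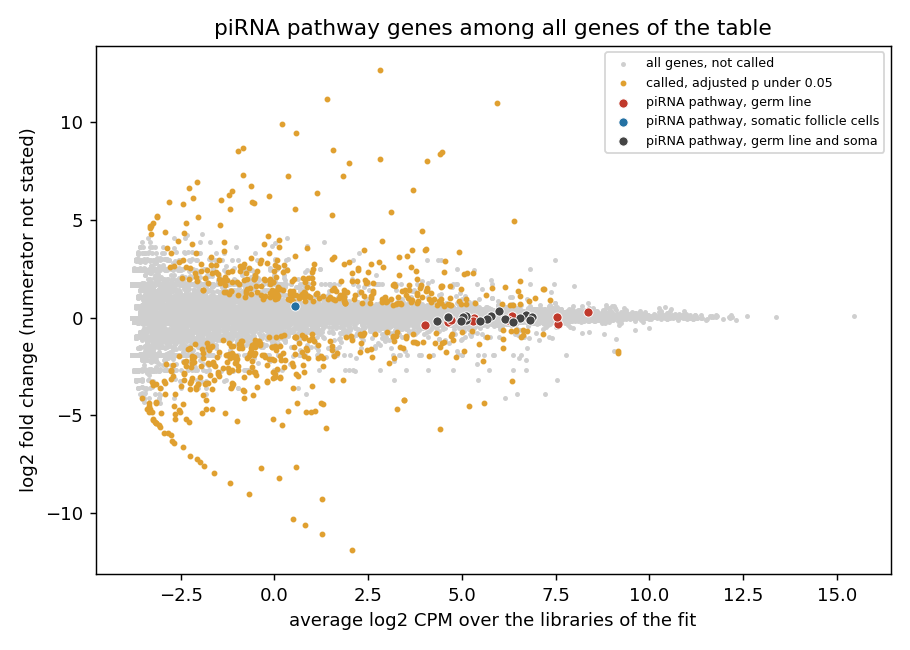
Log2 fold change (y axis) against average log2 CPM over the libraries of the authors' fit (x axis) for all 14862 genes, with called genes in orange and the 30 piRNA pathway genes as large points coloured by compartment. The members lie close to 0, and none is among the called genes.

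The 3 PIWI proteins carry the piRNAs themselves. Piwi, the nuclear silencing factor, had a log2 difference of 0.13 ± 0.37 (implied SE) and averaged 105 CPM by the authors' deposited table. Aubergine (aub), which cuts transposon RNA in the nuage, had 0.06 ± 0.38 (implied SE) at 81.5 CPM by the authors' deposited table. AGO3, its partner in amplification, had -0.32 ± 0.35 (implied SE) at 190 CPM by the authors' deposited table. These differences are below their implied SEs, and the edgeR adjusted p was 1 for each. The implied SEs of these genes were the 3 widest of the 30, and 8.66% (aub) to 12.5% (AGO3) of the genes at 16 CPM or more had a wider one.

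Cluster transcription is served by a germline complex on piRNA source loci. Rhino (rhi), a chromodomain protein of the heterochromatin protein family that marks these loci, had a log2 difference of -0.21 ± 0.20 (implied SE) at 24.7 CPM by the authors' deposited table. Cutoff (cuff), a decapping-enzyme relative that protects the nascent transcripts, had -0.36 ± 0.24 (implied SE) at 16.1 CPM by the authors' deposited table, with an edgeR adjusted p of 0.825. Deadlock (del), which links Rhino to its partners, had 0.08 ± 0.30 (implied SE) at 106 CPM by the authors' deposited table. Of the 3, rhi and cuff lay below 0 by more than 1 implied SE and del above 0 by less, and 0 passed the threshold.

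Precursor processing takes place largely at mitochondria, and none of its 11 genes passed the threshold. Zucchini (zuc), the endonuclease that cuts precursors into piRNA intermediates, had a log2 difference of 0.02 ± 0.27 (implied SE) at 24.9 CPM by the authors' deposited table. Minotaur (mino), a mitochondrial acyltransferase family member, had -0.01 ± 0.20 (implied SE) at 93.6 CPM, and the mitochondrial scaffold gene Gasz had -0.07 ± 0.22 (implied SE) at 50.8 CPM by the authors' deposited table. Armitage (armi), the RNA helicase that brings precursors to the cutting site, had 0.05 ± 0.26 (implied SE) at 117 CPM by the authors' deposited table. All 4 genes of this mitochondrial step thus differed by less than 0.1 on the log2 scale in the table.

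The cofactors of processing lay within 0.20 of 0 on the log2 scale. The Tudor-domain gene vreteno (vret) had a log2 difference of -0.19 ± 0.20 (implied SE), and the co-chaperone gene shutdown (shu), which acts in PIWI loading, had 0.03 ± 0.20 (implied SE) by the authors' deposited table. The Tudor protein gene papi, which acts in trimming, had 0.08 ± 0.20 (implied SE), and Hen1, the methyltransferase that modifies finished piRNAs, had -0.20 ± 0.26 (implied SE) by the authors' deposited table. Brother of Yb (BoYb), a germline relative of fs(1)Yb, had 0.03 ± 0.22 (implied SE), and Sister of Yb (SoYb) had -0.12 ± 0.27 (implied SE) by the authors' deposited table. The average levels of these 6 genes were between 20.1 CPM (Hen1) and 34.6 CPM (SoYb).

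The follicle-cell component fs(1)Yb had the lowest average per kb of exon and the largest log2 fold change of the 30. Its product organises the perinuclear Yb bodies, where somatic precursors are processed. It averaged 1.46 CPM by the authors' deposited table, which is 0.417 CPM per kb of exon, against 4.29 to 81.4 CPM per kb for the other 29. Its log2 fold change by the authors' deposited table was 0.57 ± 0.28 (implied SE), a ratio of 1.48, with p = 0.0436 before adjustment and adjusted p = 0.453 by edgeR. Among the 640 genes averaging 1 to 2 CPM, 28.9% were under 0.05 before adjustment and 16.7% were called by the authors' deposited table, so such a p was common at this level.

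Genes listed as markers of ovarian follicle cells lay on the same side of 0 as fs(1)Yb. All 10 markers listed, among them the yolk protein genes, chorion genes and traffic jam (tj), the transcription factor of follicle cells, were above 0, with log2 fold changes from 0.08 to 0.51 and a median of 0.29 by the authors' deposited table. Of all genes at 16 CPM or more, 57.0% lay above 0. The side was not particular to these markers, since 8 of 10 germ line markers and 5 of 6 genes listed as embryonic soma markers also lay above 0. Many of these signs are uncertain. Differences below 1 implied SE were found for 5 of 10 follicle cell, 8 of 10 germ line and 2 of 6 embryonic soma markers. The samples were whole embryos, and the source of these transcripts in them was not tested. None of the 10 passed the threshold (0 of 10), and tj came closest, with 0.48 ± 0.21 (implied SE) and an edgeR adjusted p of 0.298 by the authors' deposited table. The summed average of the 10 was 13523 CPM over all libraries of the fit, which is not a level of the compared embryos. For the chorion gene Cp38 the limits in the compared libraries were 0.0966 and 9286 CPM. The part of these markers in the value of fs(1)Yb was not tested.

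The 7 genes of nuage and amplification act in the germ line, and most encode helicases or Tudor proteins. Vasa (vas), the helicase that defines the nuage, had a log2 difference of 0.02 ± 0.19 (implied SE) at 186 CPM by the authors' deposited table. Tudor (tud), the founding member of its domain family and a component of germ plasm, had 0.27 ± 0.28 (implied SE) at 329 CPM by the authors' deposited table. Spindle-E (spn-E), a helicase with a Tudor domain, had -0.07 ± 0.25 (implied SE) at 112 CPM by the authors' deposited table. The nuage scaffold gene krimp had -0.04 ± 0.23 (implied SE), and qin, which encodes a Tudor protein that keeps amplification between different PIWI partners, had -0.11 ± 0.29 (implied SE) by the authors' deposited table. The nuage gene squ had -0.15 ± 0.24 (implied SE) and the Tudor gene tejas (tej) -0.20 ± 0.27 (implied SE) by the authors' deposited table. Of the 7, 2 were above 0 and 5 below, each by less than its implied SE.

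Transcriptional silencing by Piwi uses factors shared by germ line and soma. Panoramix (listed as CG9754) and nxf2, a nuclear export factor relative, form the complex that links Piwi to heterochromatin formation. CG9754 had a log2 difference of -0.16 ± 0.22 (implied SE) at 45.1 CPM, and nxf2 had -0.24 ± 0.19 (implied SE) at 81.7 CPM by the authors' deposited table. Eggless (egg), a histone methyltransferase, had -0.11 ± 0.18 (implied SE) at 114 CPM by the authors' deposited table. Maelstrom (mael), needed for silencing downstream of Piwi, had 0.32 ± 0.27 (implied SE) at 63.2 CPM by the authors' deposited table. The first 3 lay below 0 and mael above it, and 0 of the 4 passed the threshold.

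The methylosome genes encode the enzyme that methylates PIWI proteins for recognition by Tudor domains. Capsuleen (csul), the arginine methyltransferase, had a log2 difference of -0.07 ± 0.18 (implied SE) at 71.0 CPM by the authors' deposited table. Valois (vls), its partner, had 0.06 ± 0.28 (implied SE) at 55.2 CPM by the authors' deposited table. Both differed by less than their implied SE.

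Set by compartment, the log2 fold changes of the germline and shared components covered largely the same range. The 13 germline genes ran from -0.36 to 0.27 with a median of -0.07, and the 16 shared genes from -0.24 to 0.32 with a median of -0.04, as log2 fold changes by the authors' deposited table. Of the germline genes 5 lay above 0 and 8 below, and of the shared genes 7 above and 9 below. Among genes at 16 CPM or more 57.0% lay above 0. The compartments were not tested against each other, and the somatic class holds fs(1)Yb alone.

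**Figure D3:**
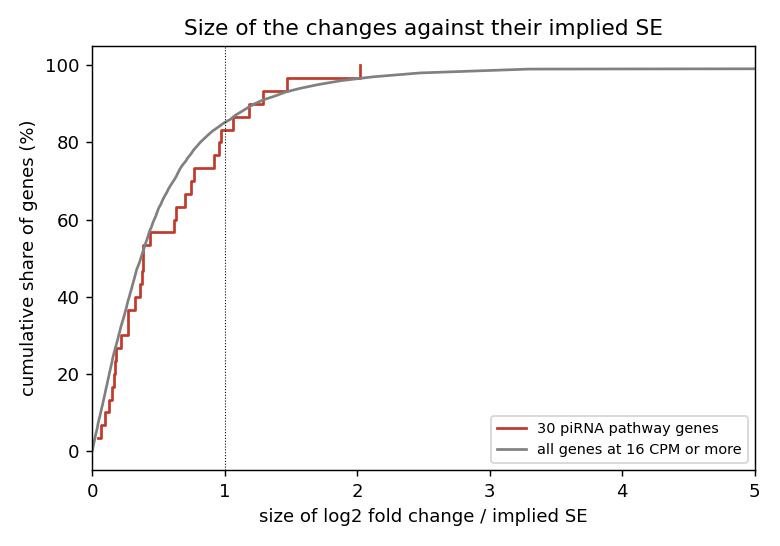
Cumulative share of genes (y axis, percent) by the size of the log2 fold change divided by its implied SE (x axis), for the 30 piRNA pathway genes (red steps) and for all genes at 16 CPM or more (grey). The curves run close to each other, with 83.3% of members and 85.0% of those genes below 1. The 30 include fs(1)Yb, which averaged 1.46 CPM. Of the 29 members at 16 CPM or more, 86.2% lay below 1.

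Average levels could be ordered per kb of exon, using exon lengths of the Ensembl release 115 annotation. Of the 12 libraries behind the averages, 3 set the positive side, 3 the negative side and 6 did not enter the contrast. On this scale vas was highest, at 81.4 CPM per kb, followed by AGO3 at 59.6 and squ at 54.5 CPM per kb. Next came vls at 42.2, tud at 37.3, csul at 35.3 and piwi at 34.3 CPM per kb. The third PIWI gene, aub, was 13th of the 30, at 27.0 CPM per kb. The lowest were SoYb at 7.04, BoYb at 6.91, qin at 4.29 and fs(1)Yb at 0.417 CPM per kb. The medians were 23.9 CPM per kb for the 13 germline genes and 25.2 for the 16 shared genes. No spread between samples could be given, so it is not known which neighbours in this order differ.

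**Figure D4:**
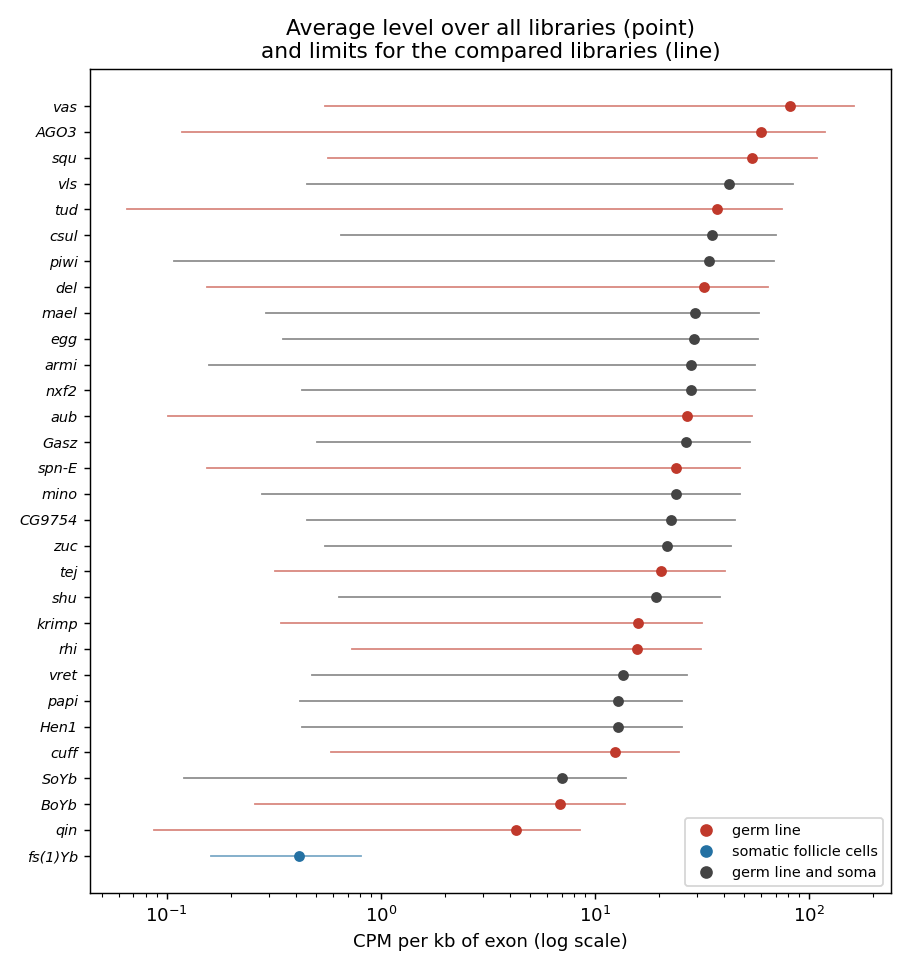
Average level of each of the 30 genes in CPM per kb of exon over the 12 libraries of the fit (points, log x axis), with the range from the lower to the upper limit for the 6 compared libraries (lines), coloured by compartment. The points run from 0.417 for fs(1)Yb to 81.4 for vas, and the lines of nearly all genes are wide.

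For the compared embryos themselves the table gives limits only. If counting noise alone gave the implied SE, the members had between 9.55 reads (aub) and 43.1 reads (egg) per compared library, and 29 of 30 had at least 10. These are lower limits, since any spread between replicates adds to the implied SE. The upper limits, with every read of the fit spread evenly over the compared libraries, ran from 2.84 CPM for fs(1)Yb to 658 CPM for tud. Each member was therefore detected in the compared libraries, but the order of their levels there is not known. For fs(1)Yb the limits were 0.565 and 2.84 CPM, the narrowest range of the 30.

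The effective library sizes, solved from genes with a single read, were 23.4 to 40.5 in units of 1000000 reads for the compared libraries and 15.8 to 33.0 for the other 6. Several of the 6 genes listed as markers of embryonic soma were scarce in the compared libraries, but not all. With the reads spread evenly, the muscle myosin gene Mhc could not exceed 6.26 CPM. The glial gene repo could not exceed 4.78 CPM, the blood cell gene Hml 0.231 CPM or Fbp1 0.172 CPM. The neuronal gene elav could reach 261 CPM and the midgut gene Jon25Bi 44.6 CPM. Whether such levels go with the labelled age of 16 to 20 h was not tested. Of 10 germ line markers 9 had at least 10 reads per compared library at the lower limit, and of 10 follicle cell markers 5 had. The 10 germ line markers had a median log2 fold change of 0.10, with 8 above 0 and 0 called by the authors' deposited table. Among genes at 16 CPM or more 57.0% lay above 0 and 1.38% were called.

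The wider pathway and the other small RNA pathways gave no call either. Of 20 further genes tied to piRNA production or silencing, 19 were found. Of these 0 passed the edgeR threshold and 0 were under 0.05 before adjustment. All averaged 16 CPM or more, where 1.38% of genes were called and 3.66% had p under 0.05 before adjustment by edgeR. A count of 0 in 19 is near those shares. Their log2 fold changes ran from -0.15 for the histone demethylase gene Su(var)3-3 to 0.22 for small ovary (sov, listed as CG14438), with a median of -0.01 by the authors' deposited table. Moonshiner (moon, listed as CG12721), which recruits the transcription machinery to clusters with Rhino and Deadlock, had -0.12 ± 0.29 (implied SE) by the authors' deposited table. Asterix (arx), a zinc finger partner of Piwi, had 0.07 ± 0.29 (implied SE), and Daedalus (daed, listed as CG10880), a mitochondrial partner of Gasz, had -0.08 ± 0.20 (implied SE) by the authors' deposited table.

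Of 4 siRNA and 6 miRNA pathway genes 0 passed the edgeR threshold, and 0 were under 0.05 before adjustment. These counts too are near the shares of 1.38% and 3.66% among genes at 16 CPM or more. Argonaute2 (AGO2), the siRNA effector, had a log2 difference of -0.11 ± 0.21 (implied SE), and the siRNA-producing nuclease Dcr-2 had 0.10 ± 0.24 (implied SE) by the authors' deposited table. The miRNA effector AGO1 had 0.02 ± 0.30 (implied SE) and its nuclease Dcr-1 -0.01 ± 0.20 (implied SE) by the authors' deposited table. The median size of the log2 difference was 0.10 for the siRNA genes and 0.03 for the miRNA genes, beside 0.11 for the 30 members, and the lists were not tested against each other.

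Some members share exon sequence with other genes in the reference annotation, and the sources used here do not say if counting used strand. Exons of another annotated gene overlap 19 of the 30 members, and cover over 10% of the exon length in 7 of them. Nearly all of armi (99.6%) is shared on the same strand with CG46463. For vas, 24.6% is shared on the same strand with solo. For squ, 16.3% is shared on the same strand with grp, which averaged 322 CPM against 74.7 CPM for squ. The telomeric retrotransposon TART-A overlaps nxf2 on the same strand over 21.6% of its exons. For mael, 11.4% of the exon length lies opposite CG14451, which averaged 1.29 CPM. An antisense RNA gene lies opposite egg over 16.0% of its exons, and exons of other genes lie opposite mino over 42.4%. The values of these 7 genes are uncertain to the extent that reads of those regions were shared. No row of the table had values identical to a member's. That does not cover CG46463, solo, TART-A, the antisense RNA opposite egg or the genes opposite mino, which have no values under those names.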

How the data were processed

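RNA of 3 InR-DN and 3 GFP control samples was sequenced. Per the labels' protocols, libraries came from an Illumina TruSeq stranded kit, with polyadenylated RNA selected per the labels. FastQC, Bowtie and TopHat were used per the submitters' processing notes; no source used here names the counter, genome build, filters or versions. The authors' deposited table is an edgeR glmLRT result per gene, per the file headers: a log2 fold change with the numerator not stated, an average log2 CPM, a likelihood ratio score, a p-value and a Benjamini-Hochberg adjusted p-value. It holds no value per sample, and so the count test of the design could not be run and the planned fallback was used: the deposited p-values, adjusted over all 14862 rows, at 0.05. The implied SE divides the absolute log2 fold change by the root of that score.

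Library sizes were solved from the 12 average levels of single-read genes, with a prior count of 2 and a dispersion of 0.0533; 76 of the 78 expected 2-read levels occur in the table within 1e-05. Upper limits give all reads to the compared libraries; lower limits assume counting noise alone. Limits cover counting error only. The method was checked on simulated data. Intervals are 95% normal intervals. Python 3.11.15, numpy 2.4.6, scipy 1.17.1 and pandas 2.3.3 were used.

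The members and lists were chosen with earlier results of these data known. All members are named; of the other lists, genes past the threshold, those with the smallest p, and examples chosen after their values were seen. Alternatives were adjusted p under 0.01 or 0.1, a 2-fold minimum, genes of 1 CPM or more, centring, and weighting. No sequence was at hand to print.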

Additional observations from a re-analysis of the deposited data

How the results depend on the processing

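The count of members past the threshold, in all and per compartment, stayed at 0 with p-values adjusted over genes of 1 CPM or more. It was also 0 with an adjusted p under 0.01 or 0.1 and with a 2-fold minimum. Those settings could not have raised it, since the smallest adjusted p of a member by edgeR was 0.453. The median log2 fold change of the 30 members was -0.05. It was -0.07 with centring on genes of 16 CPM or more, and -0.07 with members of 16 CPM or more alone. Their mean weighted by 1 over the squared implied SE was -0.05. Centring shifts every value by 0.02 on the log2 scale, and with it zuc and vas fell just below 0, at -3.57e-03 and -3.64e-03, while the other 28 members kept their sign. No paired analysis was possible because the table holds no value per sample, and for the same reason no replicate could be left out and no other normalization, filter or count test was run. A difference under about 1.69-fold, the median size a call would have taken, could go uncalled in a typical member.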

Other observations

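Stellate genes are known targets of piRNA silencing in the fly testis. Of 4 in the table, 3 averaged 0.103 CPM or less by the authors' deposited table, and SteXh:CG42398 averaged 3.38 CPM with a log2 difference of 0.45 ± 0.88 (implied SE). Of the 4 none passed the edgeR threshold (0 of 4), and 0 had an unadjusted p under 0.05. Ste12DOR and Ste:CG33246 had a log2 fold change of 0 and a likelihood ratio of 0, so a call was not possible. For Ste:CG33236 the implied SE was 1.48, so these counts say little about Stellate genes.

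Among the 10 germ line markers, nos, the posterior determinant, had the smallest p, with a log2 difference of 0.43 ± 0.23 (implied SE) and an edgeR adjusted p of 0.575 by the authors' deposited table. The anterior determinant bcd followed, with 0.31 ± 0.19 (implied SE) and an edgeR adjusted p of 0.690 by the authors' deposited table. Of the 6 genes listed as markers of embryonic soma, 1 was called, beside 4.49% of all genes. It was the midgut protease gene Jon25Bi, averaging 22.4 CPM. Its log2 fold change was 8.43, a ratio of 345, with an edgeR adjusted p of 5.0e-120 by the authors' deposited table.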
